A study of Homo sapiens with 5 samples.

Results

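The genes described here are 39 targets of the tumor suppressor p53, grouped by what their products do, in IMR-90 human diploid lung fibroblasts depleted of the histone methyltransferase NSD2. They are the rows of the deposited table whose symbols stand in a list of known p53 targets, 39 of 26364 genes listed, and 38 of them passed a filter on low values. The list leaves out CDKN1A, the p53 target that encodes the cell-cycle inhibitor p21. Each gene was placed in a single functional group. Apoptosis holds 14 genes, DNA repair 5, metabolism 7, feedback on p53 5, growth arrest 4, secreted factors 2 and other roles 2.

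The study knocked down NSD2 (also called WHSC1 or MMSET) with siRNA in normal fibroblasts, and mRNA-seq was done 24 hr after transfection. The 2 Ctr-KD libraries, Ctr-1 and Ctr-2, came from cells given a control siRNA. The 3 NSD2-KD libraries, NSD2-1, NSD2-2 and NSD2-3, each came from cells given a different siRNA against NSD2, so the effect of one siRNA and the spread between replicates cannot be told apart. All groups share the same cell strain and the transfection with siRNA, and the labels name no DNA-damaging agent for any of them.

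p53 is a transcription factor that is held at a low level in unstressed cells because MDM2, itself a p53 target, marks it for degradation. When DNA damage, activated oncogenes or other stresses release it from MDM2, p53 binds response elements in and near its target genes and raises their transcription. The targets fall into programs with different outcomes. Growth arrest and DNA repair favor survival, apoptosis removes the cell, metabolic targets adjust redox state and mitochondrial function, and feedback targets limit p53 itself. In normal fibroblasts p53 is best known for stopping the cell cycle and for its part in cellular senescence.

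The values are normalized counts, the reads on a gene divided by a size factor for each library. Reads on genes ranged from 2473691 to 2845063 per library, 1 read was worth between 0.920 and 1.09 normalized counts, and a gene at or under 3 reads, 2.76 to 3.28 normalized counts, was taken as not distinguishable from 0. The targeted gene, listed as WHSC1, stood at 463 and 443 normalized counts in the Ctr-KD libraries and at 90.2, 81.9 and 87.9 in the NSD2-KD libraries, which matches the labels. It fell by 2.37 on the log2 scale (SE 0.12, adjusted p = 0.000464, limma). Of 10 fibroblast markers, 9 had a mean of at least 10 normalized counts, and their sum ranged from 216626 to 221586 in Ctr-KD and from 202036 to 227888 in NSD2-KD cells. Of 5 epithelial markers none reached that mean, of 5 endothelial markers only TEK did, with PECAM1 and CDH5 at 0 in all 5 libraries, and of 4 immune markers only CD68 did, with PTPRC and CD3E at 0. The sums were 2.06 to 3.81 against 2.76 to 3.90 for the epithelial list, 129.6 to 141 against 99.6 to 156 for the endothelial list and 71.0 to 80.0 against 60.5 to 105 for the immune list, Ctr-KD against NSD2-KD.

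To show where letters matching the p53 response element lie at these genes, the reference genome was searched within 2500 bases on each side of the transcription start. The element consists of a pair of adjacent half-sites, each made of purines, a fixed C, a pair of A or T bases, a fixed G and pyrimidines. All 4 fixed bases were required and up to 2 mismatches were allowed elsewhere. The pattern reads the same on both strands, so a single search covers both. Matches were found at 15 of the 39 p53 targets (38.5%) and at 381 of 10453 tested genes with a window of the same length (3.64%). The list was made of known p53 targets, so its larger share is not an independent result. The 39 include TNFRSF10A, which is not among the tested genes. The sequences below are given in GRCh37 and read on the strand of the gene with 5 bases of flank on each side. They are a selection from the 15 targets with a match. Those of BAX, PMAIP1, TNFRSF10B, EDA2R and DDB2 and another match of CCNG1 are not shown. The capitals mark the fixed C and G of each half-site. The first 6 are from genes whose NSD2-KD libraries all lay above the Ctr-KD libraries, and the last 4 from genes whose groups overlapped.
BTG2, chr1:203272765-203272794, plus strand, 1868 bases upstream: gggtcacgCatGttcaggCatGcatggaat
GDF15, chr19:18496113-18496142, plus strand, 841 bases upstream: attgccatCttGcccagaCttGtctcgaac
SPATA18, chr4:52918118-52918147, plus strand, 662 bases downstream in an intron: aggaaggaCatGtgtgtaCatGcccttgtc
AEN, chr15:89164532-89164561, plus strand, 25 bases upstream: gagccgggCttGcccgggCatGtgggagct
CCNG1, chr5:162864927-162864956, plus strand, 340 bases downstream in an intron: tgtgagcaCaaGcccaggCtaGtccgaggc
PLK2, chr5:57758096-57758125, minus strand, 2198 bases upstream: atgagaaaCatGcctggaCttGccctgcac
MDM2, chr12:69202698-69202727, plus strand, 755 bases downstream in an intron: gagctggtCaaGttcagaCacGttccgaaa
FAS, chr10:90751061-90751090, plus strand, 661 bases downstream in an intron: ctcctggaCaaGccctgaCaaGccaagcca
GADD45A, chr1:68152453-68152482, plus strand, 1583 bases downstream in an intron: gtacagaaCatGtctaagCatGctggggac
ZMAT3, chr3:178787971-178788000, minus strand, 1611 bases downstream in an intron: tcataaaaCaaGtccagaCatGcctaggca
The matches at PLK2 and ZMAT3 had 0 mismatches. A match describes the letters only, and no binding was measured in these libraries.

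As a set, the p53 targets lay higher in NSD2-KD than in Ctr-KD cells, but by modest amounts and unevenly between the siRNAs. Of the 38 tested, 32 had a higher and 6 a lower mean log2 value in NSD2-KD cells. Of 11312 tested genes with a unique symbol, 5490 had a higher and 5822 a lower one. The median difference of the 38 was 0.23 on the log2 scale (range -0.33 to 1.70), against -0.01 for all genes tested. In 19 of the 38 the lowest NSD2-KD library lay above the higher Ctr-KD library, where 13.8% of all 11313 tested genes did so. In 0 of the 38 did all NSD2-KD libraries lie below both Ctr-KD libraries, against 13.9% of all genes. The plot of fold changes by function shows each gene with its 3 siRNAs, and the plot of the distributions sets the 38 genes beside all genes tested.

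**Figure D1:**
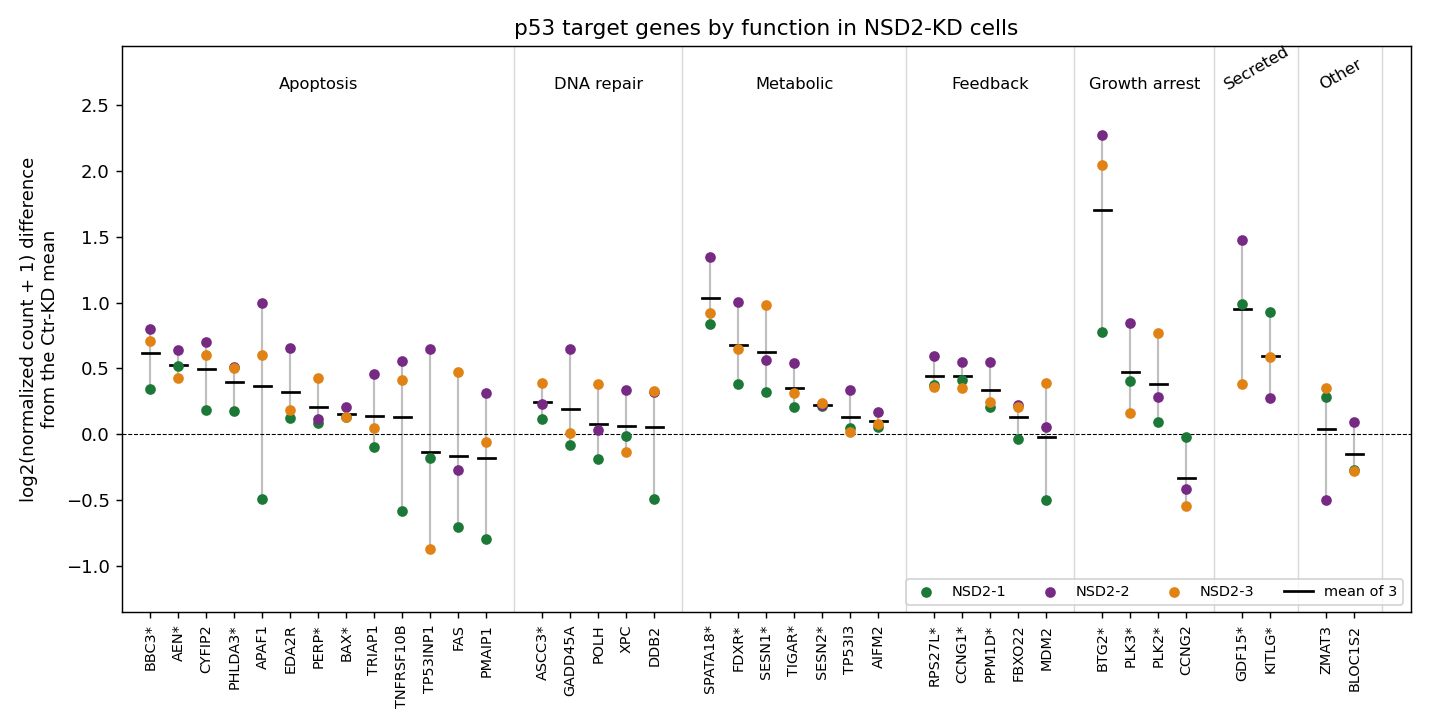
Difference of each NSD2-KD library from the Ctr-KD mean on the log2(normalized count + 1) scale (vertical axis) for the 38 tested p53 targets, grouped by function, with colored points for the 3 libraries, a bar for their mean and an asterisk where all 3 lie above both Ctr-KD libraries. Most bars lie above 0, that of BTG2 is highest at 1.70, and the libraries of several apoptosis and DNA repair genes lie on both sides of 0.

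No p53 target in the list passed an adjusted p of 0.05 by limma, which called 10 of 11313 genes (0.0884%). By edgeR's quasi-likelihood test 0 of the 38 passed, among 16 genes called (0.141%), and by DESeq2 1 did, BTG2, among 58 called (0.513%). At an unadjusted p under 0.05 by limma, 11 of the 38 were higher and 0 lower, where 4.19% of all genes were higher and 4.99% lower. These 11 were BBC3, AEN, PHLDA3, SESN1, FDXR, SPATA18, CCNG1, RPS27L, BTG2, GDF15 and KITLG. The p-values measure the spread between these 5 libraries only, and the smallest p that an exact permutation test can reach with these group sizes is 0.1. In bulk RNA, a change in the number of cells that express a gene and a change in RNA per cell cannot be told apart.

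**Figure D2:**
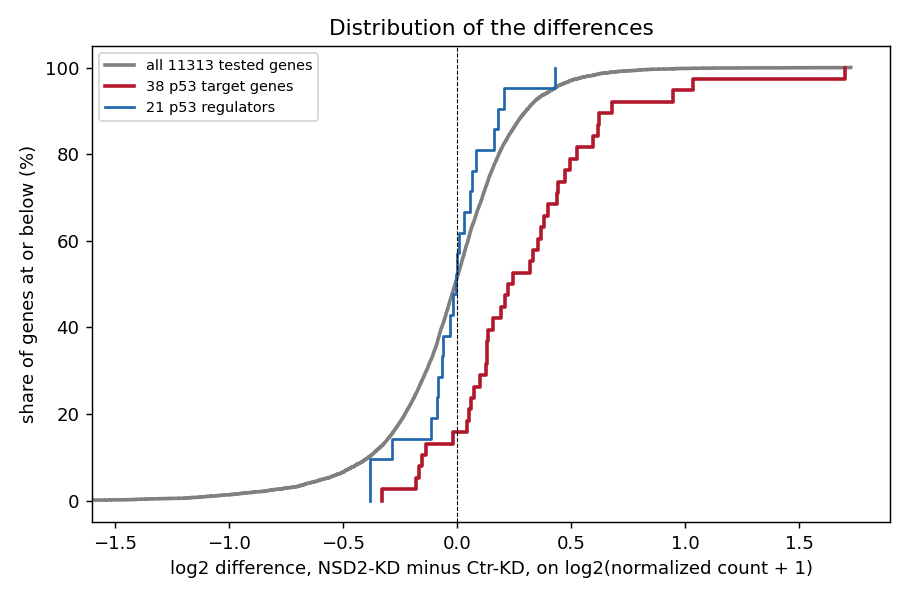
Cumulative share of genes (vertical axis, %) at or below each log2 difference between NSD2-KD and Ctr-KD cells (horizontal axis), for all 11313 tested genes, the 38 tested p53 targets and 21 regulators of p53. The curve of the p53 targets lies to the right of the others, with a median of 0.23 against -0.01 for all genes.

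The 3 NSD2-KD libraries differed in how many targets lay high. In NSD2-1, 20 of the 38 p53 targets lay above both Ctr-KD libraries, against 38.6% of all tested genes. In NSD2-2, 33 did, against 40.6%, and in NSD2-3, 29 did, against 39%. Against the Ctr-KD mean, the median log2 difference of the 38 genes was 0.12 in NSD2-1, 0.48 in NSD2-2 and 0.36 in NSD2-3, and that of all genes was 0.01, 0.01 and 0.00. NSD2-2 held the highest of the 5 values for 26 of the 38 genes, NSD2-3 for 10 and NSD2-1 for 1. Of 11312 tested genes with a unique symbol, NSD2-2 held the highest value for 2790, NSD2-3 for 2367 and NSD2-1 for 2373. NSD2-1 lay below both Ctr-KD libraries for 10 of the 38 genes, NSD2-2 for 3 and NSD2-3 for 4. Of the 11312 genes, 4303 did so in NSD2-1, 4395 in NSD2-2 and 4376 in NSD2-3, larger shares than those of the 38 targets. Without NSD2-1 the median of the 38 was 0.36. The remaining NSD2 mRNA, given above, spanned 81.9 to 90.2 normalized counts over the same 3 libraries.

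By function, the median log2 difference was 0.21 for the 13 tested apoptosis genes, 0.08 for the 5 DNA repair genes, 0.35 for the 7 metabolic genes, 0.33 for the 5 feedback genes, 0.43 for the 4 growth arrest genes and 0.77 for the 2 secreted factors. The 2 genes with other roles had a median of -0.06. The groups of libraries did not overlap for 5 of 13 apoptosis genes, 1 of 5 repair genes, 5 of 7 metabolic genes, 3 of 5 feedback genes, 3 of 4 growth arrest genes and both secreted factors, all higher, where 13.8% of all tested genes were higher without overlap. The count of 1 in 5 repair genes is near that share. With so few genes in a group, these counts describe the genes listed, and the differences between functions were not tested. The apoptosis median was 0.42 without NSD2-1 and 0.13 without NSD2-2, and the metabolic median was 0.22 when a mean of at least 50 normalized counts was required, which removes SESN1 and SPATA18.

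Among the apoptosis targets, the genes of the mitochondrial route were split. BBC3, which encodes the BH3-only protein PUMA that unleashes BAX and BAK, was at 31.4 and 41.2 normalized counts in Ctr-KD and at 46.0, 63.4 and 59.5 in NSD2-KD libraries. All 3 NSD2-KD values lay above both controls, and the mean was 36.3 ± 6.87 (SD, n = 2) against 56.3 ± 9.12 (SD, n = 3), a 1.55-fold difference. The log2 difference of BBC3 was 0.62 (SE 0.22, adjusted p = 0.437, limma). A microRNA gene, MIR3191, has exons over those of BBC3. BAX, the pore-forming protein of the mitochondrial outer membrane, was at 300.1 and 291 against 323, 342 and 324. The 2 groups of BAX values were apart by little, with a 1.12-fold difference in the means (296 ± 6.32 against 329.7 ± 10.6) and a log2 difference of 0.16 (SE 0.10, adjusted p = 0.716).

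PMAIP1, which encodes the BH3-only protein NOXA, was at 122 and 133 in Ctr-KD and at 72.7, 158 and 122 in NSD2-KD libraries. The NSD2-KD values of PMAIP1 spread to both sides of the controls, and the log2 difference was -0.18 (SE 0.29). APAF1, the scaffold of the apoptosome, was at 106 and 110.1 against 76.4, 216 and 164. NSD2-1 was again the low library and NSD2-2 the high one, and the log2 difference of 0.37 (SE 0.37) was no larger than its error.

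The death receptors showed no separation of the groups. FAS was at 111 and 119 in Ctr-KD and at 69.9, 95.0 and 160.1 in NSD2-KD libraries, with a log2 difference of -0.17 (SE 0.30). TNFRSF10B, the TRAIL receptor DR5, was at 442 and 459.9 against 301, 662 and 601, a log2 difference of 0.13 (SE 0.29). For both receptors NSD2-1 lay below the controls and NSD2-3 above them. EDA2R, a receptor for ectodysplasin A2, was at 41.0 and 50.4 against 49.7, 72.1 and 51.7, so that NSD2-1 fell between the controls. TNFRSF10A, the TRAIL receptor DR4, did not pass the filter, with 8.57 and 6.17 against 5.52, 9.83 and 16.6 normalized counts. The exons of FAS and ACTA2 overlap on opposite strands, those of TNFRSF10B are overlapped by RHOBTB2, and the strand setting of the counting is not given in the sources used here.

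The clearest differences among the other apoptosis targets were those of AEN and PHLDA3. AEN, a nuclease that acts in apoptosis, was at 195 and 168 in Ctr-KD and at 259, 283 and 243 in NSD2-KD libraries. Its 3 NSD2-KD values were close to each other and all above both controls. The mean was 181 ± 19.5 against 262 ± 20, and the log2 difference was 0.53 (SE 0.13, adjusted p = 0.267, limma). PHLDA3, an inhibitor of AKT, was at 299 and 324 against 352, 443 and 441, with a log2 difference of 0.40 (SE 0.13, adjusted p = 0.401, limma). NSD2-1 stood less than 10% above the higher control of PHLDA3. An unnamed gene, ENSG00000224818, has exons over those of PHLDA3 on the same strand. PERP, a membrane protein of cell junctions, was at 374 and 358 against 387, 398 and 493, where NSD2-1 stood less than 10% above the higher control. TP53INP1, which promotes p53 activity, varied widely between siRNAs, with 102 and 118 in Ctr-KD against 96.6, 173 and 59.5. For CYFIP2 (9.53 and 21.6 against 16.6, 24.0 and 22.5) and for the apoptosis inhibitor TRIAP1 (80.0 and 67.9 against 69.0, 102 and 76.1), the NSD2-KD values overlapped the controls. The lowest adjusted p among the 13 apoptosis genes was 0.267, that of AEN.

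The DNA repair targets differed little, with overlapping groups for all but 1 of the 5 genes. GADD45A, a stress sensor with parts in repair and growth arrest, was at 200.1 and 205 normalized counts in Ctr-KD and at 191, 318 and 204 in NSD2-KD libraries. One library, NSD2-2, carried all of the higher mean, and the log2 difference was 0.19 (SE 0.21). DDB2, which recognizes ultraviolet damage, was at 65.7 and 64.8 against 46.0, 81.9 and 82.0, a log2 difference of 0.05 (SE 0.27). XPC, the damage sensor of global nucleotide excision repair, was at 152 and 157 against 154, 196 and 141. POLH, a translesion DNA polymerase, was at 182 and 152 against 146, 170.4 and 217. XPC and POLH had 1 NSD2-KD library above and 1 below both controls. Only ASCC3, a helicase of alkylation damage repair, had groups that did not overlap, at 364 and 395 against 410.4, 445 and 498, with a log2 difference of 0.24 (SE 0.12, adjusted p = 0.592, limma). The median of the 5 genes was 0.31 without NSD2-1 and -0.03 without NSD2-2.

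All 7 metabolic targets had a higher mean log2 value in NSD2-KD cells, as had all 5 DNA repair genes and both secreted factors. Of 11312 tested genes with a unique symbol, 5490 had a higher one. The largest difference among the metabolic targets was that of SPATA18. This gene, which encodes a factor that clears damaged mitochondrial proteins, was at 21.9 and 32.9 normalized counts in Ctr-KD and at 48.8, 69.9 and 51.7 in NSD2-KD libraries. The groups were far apart, 27.4 ± 7.79 (SD, n = 2) against 56.8 ± 11.4 (SD, n = 3), a 2.07-fold difference. The log2 difference of SPATA18 was 1.03 (SE 0.26, adjusted p = 0.267, limma). FDXR, a mitochondrial reductase that feeds electrons to steroid and iron-sulfur cluster synthesis, was at 53.3 and 40.1 against 60.7, 93.9 and 73.2. Its mean was 1.63 times that of Ctr-KD cells, with a log2 difference of 0.68 (SE 0.23, adjusted p = 0.405).

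The sestrins, which restrain mTORC1 signaling under stress, differed in size of effect. SESN1 was at 33.3 and 40.1 in Ctr-KD and at 46.0, 54.6 and 73.2 in NSD2-KD libraries, 1.58-fold higher, with a log2 difference of 0.62 (SE 0.24, adjusted p = 0.469, limma). SESN2 was at 235 and 216 against 262, 263 and 266. The 3 NSD2-KD values of SESN2 lay closest together of any p53 target described here (264 ± 1.67, SD, n = 3). They rest on 285, 241 and 272 reads, whose counting error alone is larger than this SD, so the SD is no measure of precision. The difference of SESN2 was only 1.17-fold and its log2 value 0.22 (SE 0.11). TIGAR, a phosphatase that lowers glycolytic flux, was at 85.7 and 110.1 against 112, 142 and 121, with NSD2-1 just above the higher control. The quinone oxidoreductase TP53I3 (107 and 136 against 124, 152 and 122) and the ferroptosis suppressor AIFM2 (126 and 115 against 125, 135 and 127) had overlapping groups. Exons of SESN1, TIGAR, TP53I3 and AIFM2 are overlapped by those of other genes.

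**Figure D3:**
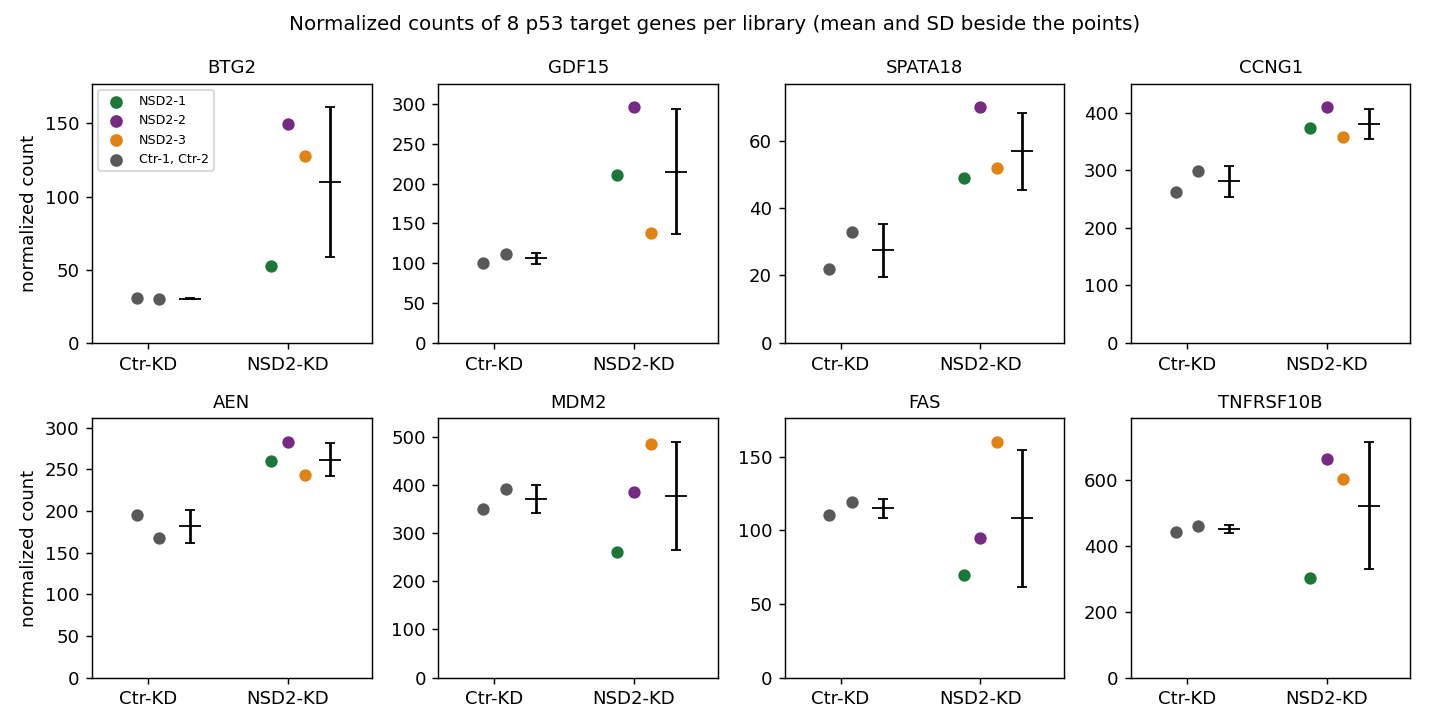
Normalized counts (vertical axes, from 0) of BTG2, GDF15, SPATA18, CCNG1, AEN, MDM2, FAS and TNFRSF10B in the 2 Ctr-KD and 3 NSD2-KD libraries, one point per library, with the mean and SD of each group beside the points. BTG2 stands at 30.5 and 29.8 in Ctr-KD and at 52.4, 149.7 and 128 in NSD2-KD libraries, while the NSD2-KD values of MDM2 lie on both sides of the controls.

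The feedback targets divided between MDM2, with no shift of the mean, and CCNG1 and RPS27L, with compact and separate groups. MDM2, the ubiquitin ligase that degrades p53, was at 349.6 and 392 normalized counts in Ctr-KD and at 261, 385 and 485 in NSD2-KD libraries. NSD2-1 was below both controls, NSD2-2 between them and NSD2-3 above both, and the means of 371 ± 29.9 and 377 ± 112 differed by 1.02-fold. Its log2 difference was -0.02 (SE 0.23, adjusted p = 0.988, limma) and turned to 0.02 by edgeR and by DESeq2. Exons of MDM2 are overlapped by those of ENSG00000256664 on the same strand and of CPM and ENSG00000257181 on the other. CCNG1, cyclin G1, which recruits the PP2A phosphatase to MDM2, was at 262 and 299 against 374, 409.6 and 358. All 3 NSD2-KD libraries exceeded the controls by a margin larger than the spread within either group, with a log2 difference of 0.44 (SE 0.12, adjusted p = 0.291).

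RPS27L, a ribosomal protein paralog that binds MDM2, was at 204 and 209.9 in Ctr-KD and at 268, 314 and 266 in NSD2-KD libraries, also a log2 difference of 0.44 (SE 0.12, adjusted p = 0.31, limma). RPS27L has a close paralog, RPS27, and whether reads were shared between them was not tested. PPM1D, the phosphatase WIP1 that reverses damage signaling, was at 50.5 and 39.1 against 51.5, 65.5 and 52.7. NSD2-1 and NSD2-3 lay just above the higher control of PPM1D, and the log2 difference was 0.33 (SE 0.21). FBXO22, a ubiquitin ligase subunit, was at 78.1 and 107 against 89.3, 107 and 105, inside the range set by the controls or level with its upper end.

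BTG2, an antiproliferative transcriptional coregulator counted with growth arrest, had the largest difference of the 38 genes. It was at 30.5 and 29.8 normalized counts in Ctr-KD and at 52.4, 149.7 and 128 in NSD2-KD libraries. The controls were nearly equal, NSD2-2 and NSD2-3 were far above them and NSD2-1 stood between. The mean was 30.2 ± 0.46 (SD, n = 2) against 110.0 ± 51.0 (SD, n = 3), a 3.65-fold difference. The log2 difference of BTG2 was 1.70 (SE 0.40), with an adjusted p of 0.241 by limma, 0.209 by edgeR and 0.00632 by DESeq2. Over all alternatives its adjusted p ran from 0.00632 to 1.00, and it was 0.0200 by limma without NSD2-1.

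The Polo-like kinases PLK2 and PLK3, stress-responsive relatives of PLK1, were both higher. PLK2 was at 187 and 206 in Ctr-KD and at 209, 239 and 335 in NSD2-KD libraries, with a log2 difference of 0.38 (SE 0.19, adjusted p = 0.611, limma). PLK3 was at 60.0 and 53.5 against 75.5, 103 and 63.4, with a log2 difference of 0.47 (SE 0.22, adjusted p = 0.585). For each of them the lowest NSD2-KD library was less than 10% above the higher control. CCNG2, cyclin G2, had the lowest log2 difference of the set, -0.33 (SE 0.20, adjusted p = 0.688). It was at 73.4 and 76.1 against 73.6, 55.7 and 50.8, with NSD2-1 between the controls, and under the TMM scaling of edgeR its groups no longer overlapped.

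Both secreted factors had groups that did not overlap. GDF15, a stress-induced cytokine of the TGF-beta family, was at 101 and 111 normalized counts in Ctr-KD and at 211, 296 and 139 in NSD2-KD libraries. The mean was 106 ± 7.16 (SD, n = 2) against 215 ± 78.8 (SD, n = 3), a 2.03-fold difference, and the log2 difference was 0.95 (SE 0.28, adjusted p = 0.325, limma). KITLG, the ligand of the receptor KIT, was at 146 and 156 against 289, 182 and 227, with a log2 difference of 0.60 (SE 0.19, adjusted p = 0.376). KITLG was highest in NSD2-1, unlike the other 37 genes tested. An unnamed gene, ENSG00000281333, has exons over those of KITLG. The 2 remaining targets showed no separation. ZMAT3, an RNA-binding regulator of splicing and mRNA stability, was at 474 and 461 against 568, 329.9 and 596, and BLOC1S2, a lysosome-related protein, was at 100 and 107 against 85.6, 110.3 and 84.9.

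Across functions, many of the overlapping genes had NSD2-KD values on both sides of the controls. Of the 19 genes whose groups overlapped, 12 had at least 1 NSD2-KD library above both controls and at least 1 below both, and NSD2-1 was below both in 10 of the 12. These 12 were PMAIP1, APAF1, FAS, TNFRSF10B, TP53INP1, GADD45A, DDB2, XPC, POLH, MDM2, ZMAT3 and BLOC1S2. How often this mixed pattern occurs among all tested genes was not counted, so it is not read as a trait of the p53 targets. NSD2-1 lay below both controls for 4303 of 11312 tested genes with a unique symbol. Among the 19 genes without overlap, the lowest NSD2-KD value was less than 10% above the higher control in 8, which were BAX, PERP, PHLDA3, ASCC3, TIGAR, PPM1D, PLK2 and PLK3. This cut takes no account of counting error, which is larger for genes with few reads. The nearest libraries, NSD2-1 against the higher control, held 50 against 40 reads for BBC3, 50 against 39 for SESN1 and 66 against 56 for FDXR. Only BTG2, SPATA18 and GDF15 reached a 2-fold difference in the means, and BBC3, SESN1, FDXR and KITLG reached 1.5-fold. By expression level, 7 of 14 genes with a mean under 100 normalized counts and 12 of 24 with a higher mean had groups that did not overlap. Over all 11313 tested genes, 13.8% were higher without overlap. That share was not counted by expression level, so whether the level matters was not tested. In 18 of the 39 genes exons are overlapped by those of another gene, and 13 of the 19 without overlap between groups are free of this.

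Targets with and without a p53 element were then set side by side. Of the 15 targets with a match, 7 had groups that did not overlap (AEN, BAX, BTG2, CCNG1, GDF15, PLK2 and SPATA18), against 12 of the 23 tested targets without one. All of these were higher, where 13.8% of all 11313 tested genes were higher without overlap. The share among the other tested genes with a match was not counted. The median log2 difference was 0.19 with a match and 0.24 without. FAS, GADD45A, MDM2 and PMAIP1, whose matches lie in an intron or upstream, had overlapping groups, and so had ZMAT3 with 0 mismatches. Elements outside the window, or with more mismatches, were not searched.

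**Figure D4:**
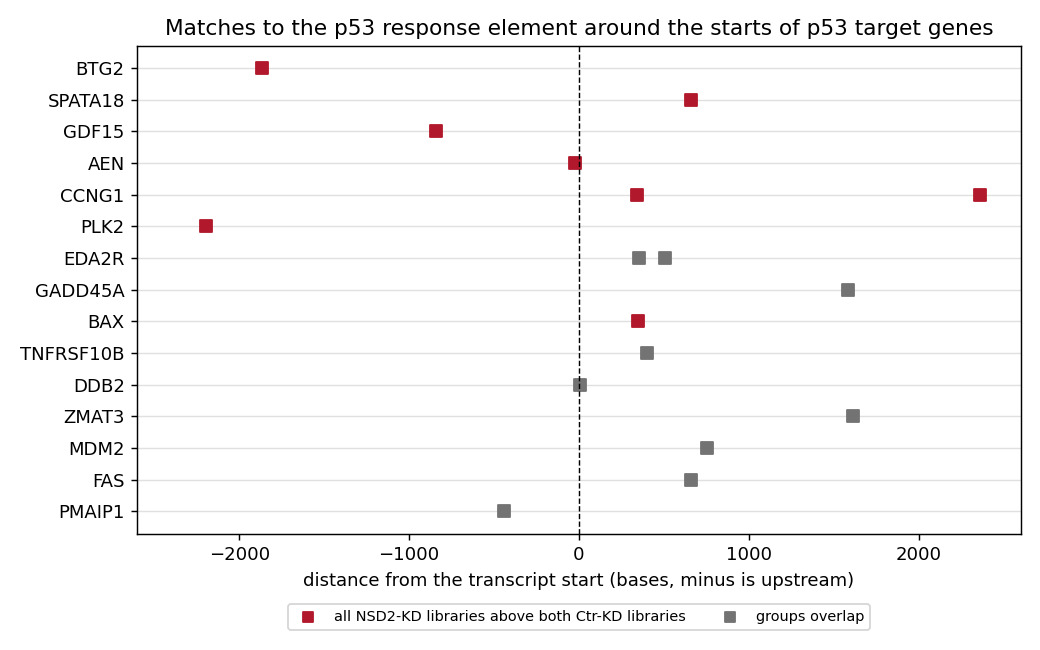
Distance in bases of each p53 response element match from the transcription start of its gene (horizontal axis, minus is upstream) for the 15 p53 targets with a match, ordered from the highest log2 difference at the top, with red squares for genes whose NSD2-KD libraries all lay above both Ctr-KD libraries and grey squares for genes whose groups overlapped. Squares of both colors lie on both sides of the start, for example BTG2 and PMAIP1 upstream and SPATA18 and MDM2 downstream.

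The genes that control p53 showed no shift as a group. Of 21 tested regulators of p53, among 24 listed, 10 were higher and 11 lower, and their median log2 difference was -0.0059. After adjustment 0 passed by limma, edgeR or DESeq2, and 1 was higher and 0 lower by limma at an unadjusted p under 0.05. Groups did not overlap for 1 higher and 2 lower of the 21, against 13.8% higher and 13.9% lower among all tested genes, so these counts are no more than the background share. They were EP300, the acetyltransferase and p53 coactivator (268 and 255 against 327, 357 and 374, higher), CHEK1, the checkpoint kinase (107 and 90.5 against 88.3, 60.1 and 80.0, lower), and MDM4, the MDM2 partner that restrains p53 (81.9 and 81.3 against 75.5, 63.4 and 62.5, lower). The log2 differences were 0.43 (SE 0.11) for EP300, -0.38 (SE 0.20) for CHEK1 and -0.28 (SE 0.17) for MDM4.

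Other p53 targets, which the list does not hold, also lay higher more often than lower. These genes too were chosen with earlier results of these data known, so their counts are not independent support. Of 28 tested among 32 listed, 21 were higher and 7 lower, where 5490 of 11312 tested genes with a unique symbol were higher. The median log2 difference of the 28 was 0.27. Their groups did not overlap for 9 higher genes and 1 lower gene, against 13.8% higher and 13.9% lower among all tested genes. By limma 0 of the 28 passed after adjustment, and edgeR called 0 and DESeq2 1. At an unadjusted p under 0.05 by limma, 6 were higher and 0 lower, where 4.19% of all genes were higher and 4.99% lower. CDKN1A was at 1851 and 1905 normalized counts in Ctr-KD and at 2455, 3955 and 3340.4 in NSD2-KD libraries, in the same order of siRNAs as BTG2, and its mean was 1.73-fold higher. The log2 difference of CDKN1A was 0.76 (SE 0.17), with an adjusted p of 0.237 by limma and 0.0398 by DESeq2, and from 0.0235 to 1.00 over the alternatives. KLF4, a transcription factor (21.0 and 22.6 against 35.0, 37.1 and 27.3), and NADSYN1, an enzyme of NAD synthesis (108 and 110.1 against 144, 206 and 131), had the next highest log2 differences among those without overlap. IGFBP3, an insulin-like growth factor binding protein (896 and 889.9 against 772, 552 and 886), was the lower gene without overlap, with NSD2-3 close to the controls.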

How the data were processed

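mRNA-seq libraries of IMR-90 cells were compared between 2 Ctr-KD and 3 NSD2-KD libraries, with groups taken from the sample labels. According to the methods of the study and the submitters' processing notes, the authors used Trimmomatic for trimming, HISAT2 for mapping to hg19, SAMtools to keep unique reads and featureCounts for the count per gene. The annotation and strand setting are not given in the sources used here. The signal that the authors deposited is the normalized count, the reads on a gene divided by a DESeq2 size factor per library, so a change common to every gene would not be seen. A second deposited table holds the authors' own DESeq2 comparison (fold changes and p-values) and was not used.

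In each library 100% of values were whole multiples of the smallest one within 0.01, so reads were recovered, and 3 reads were taken as the floor, for counting error only. The comparison was limma-trend on log2(normalized count + 1), which understates the differences of low genes, over 11313 genes with a mean of at least 10, with Benjamini-Hochberg adjustment over all of them at 0.05. The settings varied were the pseudocount (0.5 and 5), the filter (none and a minimum mean of 50), the estimation of variance in limma (without trend, and robust), quantile normalization, limma-voom, edgeR and DESeq2 on recovered reads (edgeR called 16 genes), a replicate block, the Ctr-KD libraries averaged and counted as 1, and leaving out each library in turn. The tests were checked on simulated reads with planted changes larger than most differences reported here and with the same dispersion for every gene and library. That check does not cover differences as small, or libraries as uneven, as those described here. The Ctr-KD pair differed only slightly beyond counting noise (a chi-square of 1.05 for each degree of freedom, p = 0.000175, 12373 genes, where other pairs had 3.87 to 5.29) and was counted as 2. R 4.3.3, limma 3.58.1, edgeR 4.0.16 and DESeq2 1.42.0 were used. Gene positions and p53 elements come from the GENCODE annotation of GRCh37, the same assembly as hg19, to which 92.4% of tested genes were matched.

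The p53 targets, the functional groups and the other lists were chosen with earlier results of these data known. All members are named. Of the other pathway genes, MDM4, CDKN1A and the 3 highest and 3 lowest whose groups did not overlap are named, and EP300 was named after its values were seen. Some genes of the other lists are not reported here and are left out of their counts.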

Additional observations from a re-analysis of the deposited data

How the results depend on the processing

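The number of genes called, 10, became 1 without the trend, 16 by edgeR, 58 by DESeq2, 0 with the Ctr-KD libraries averaged, and 0 to 30 when a library was left out (0 without either Ctr-KD library, 16 without NSD2-1, 4 without NSD2-2 and 30 without NSD2-3). The p53 targets called, 0, became 1 by DESeq2 (BTG2) and 0 to 1 when a library was left out (BTG2, without NSD2-1). Other pathway genes called, 0, became 1 by DESeq2 and 0 to 1 when a library was left out (CDKN1A). Targets lower without overlap, 0, became 1 with edgeR's TMM, 1 with limma-voom and 1 with the Ctr-KD libraries averaged (CCNG2 in each), and 0 to 2 when a library was left out. Over the 17 alternatives, as far as each gene passed their filter, 24 of 38 targets kept their direction, among them all 19 without overlap. For those 19 most alternatives could not have turned the direction, since every NSD2-KD value lay above every Ctr-KD value. This holds for leaving out a library, averaging the controls, the block, and changes of pseudocount, filter or variance estimation. Of the 19, 18 remained without overlap after quantile normalization and 19 with TMM.

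The replicate numbers of the 2 groups are only a label, since same-numbered libraries did not deviate together (r = -0.015 and -0.027). With the replicate block, which leaves out NSD2-3, 102 genes, 1 target (GDF15) and 1 other pathway gene were called, and the log2 difference was -0.014 for TNFRSF10B, 0.23 for TP53INP1, -0.086 for DDB2, -0.076 for POLH and -0.11 for ZMAT3. MDM2 was at 0.017 by edgeR and 0.021 by DESeq2. The cause of these shifts was not tested.

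When a library was left out, the median of the DNA repair targets ranged from -0.034 to 0.31, and the log2 difference from -0.055 to 1.05 for CYFIP2, -0.086 to 0.32 for DDB2, -0.49 to 0.10 for FAS, -0.093 to 0.36 for FBXO22, -0.034 to 0.33 for GADD45A, -0.22 to 0.22 for MDM2, -0.43 to 0.13 for PMAIP1, -0.076 to 0.21 for POLH, -0.084 to 0.48 for TNFRSF10B, -0.040 to 0.30 for TP53I3, -0.53 to 0.23 for TP53INP1, -0.024 to 0.25 for TRIAP1, -0.075 to 0.16 for XPC and -0.11 to 0.31 for ZMAT3. Counting error weighs most on TNFRSF10A and CYFIP2, which had the fewest reads.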
